A study of Mus musculus with 16 samples.

Results

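H3K9 demethylases, the enzymes that take methyl groups off lysine 9 of histone H3, were followed as 9 genes chosen by symbol in the transcriptomes of mouse splenic memory CD4+ T cells: Kdm1a, Kdm3a, Kdm3b, Jmjd1c, Kdm4a, Kdm4b, Kdm4c, Kdm7a and Phf2. These are 9 of the 56748 genes in the count table, and all 9 passed the filter on low counts, as did 15776 genes in all over the 16 samples. Memory cells (Tmem, CD4+CD25low/-CD62L-CD44high) were sorted from 4 groups of 4 samples: HP1a KO, HP1a WT, HP1g KO and HP1g WT, called HP1α KO, HP1α WT, HP1γ KO and HP1γ WT from here on. In the HP1α line a floxed Hp1a allele had been excised with CMV-cre, which is active in every tissue, and KO and WT were littermates of heterozygous parents. In the HP1γ line KO and WT littermates were both homozygous for the floxed Hp1g allele and the KO also carried Cd4-cre, and an effect of Cre there cannot be told apart from that of the deletion. All mice were of a mixed 129/Sv x C57BL/6 background, sex-matched and 6 to 12 weeks old.

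Methylated lysine 9 is the mark that HP1 proteins bind, and it is written by enzymes such as SUV39H1, SETDB1 and G9a and removed by 2 classes of demethylase. KDM1A (LSD1) is a flavin-dependent amine oxidase that acts on mono- and dimethylated lysines, mostly lysine 4 and in some settings lysine 9. The other members carry a JmjC domain, which needs iron, oxygen and 2-oxoglutarate. KDM3A and KDM3B remove mono- and dimethyl marks, JMJD1C is their relative with a less settled activity, KDM4A to KDM4C act on trimethylated and dimethylated lysine 9 and also on lysine 36, and KDM7A and PHF2 hold a PHD finger that binds methylated lysine 4 beside the JmjC domain. RNA levels say nothing of the activity of these enzymes.

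Estimated counts summed to between 26694045 and 40199637 per sample and did not differ between KO and WT of either line by an exact two-sided permutation test (p = 0.371 in the HP1α line and 0.343 in the HP1γ line, smallest possible p 0.0286). Each member held between 1205 and 18573 counts in every sample. CD4 T cell markers were high throughout (6 genes, summed TPM 4673 to 5402), and all 3 erythroid markers were detected, with median summed TPM of 191 in HP1α KO, 95.3 in HP1α WT, 1834 in HP1γ KO and 517 in HP1γ WT. B cell markers summed to 331 to 809 TPM, mostly Ighm, while Ms4a1 was below 1 TPM in every group's samples. The targeted gene Cbx3, which encodes HP1γ, was at 47.5 ± 1.97 CPM in HP1γ KO against 84.5 ± 8.66 in HP1γ WT (SD, n = 4, where CPM is the count scaled by library size with TMM normalization), a log2 fold change of -0.82 (adjusted p = 0.00150, edgeR). Cbx5, which encodes HP1α, was at 27.1 ± 2.77 CPM in HP1α KO and 40.3 ± 9.28 in HP1α WT, and its log2 fold change of -0.58 did not pass the test (adjusted p = 0.946, edgeR). These are counts over whole genes, which include exons outside the floxed part.

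In GRCm39 8 of the members lie on 5 chromosomes: Kdm1a at chr4:136277846-136330106, Kdm4a at chr4:117994154-118037251 and Kdm4c at chr4:74160734-74324757, Kdm3a at chr6:71565956-71610472 and Kdm7a at chr6:39113554-39183728, Jmjd1c at chr10:66931904-67092109, Phf2 at chr13:48955226-49024635 and Kdm4b at chr17:56632913-56714338. Promoters are given for Jmjd1c, the member whose level differed most between the lines, and for Kdm3a and Kdm7a, whose levels varied together. The RefSeq table (GRCm38.p6) held an entry for 7 of the 9 members, none for Kdm3b or Kdm4b. Of the 2 windows listed for Jmjd1c, the 3 for Kdm3a and the 1 for Kdm7a, the first of each gene is shown. Each window of 300 bases covers an annotated start, mostly the bases before it, and was found at 1 place in GRCm39: chr10:66962617-66962916 on the plus strand for Jmjd1c, chr6:71609852-71610151 on the minus strand for Kdm3a and chr6:39183658-39183957 on the minus strand for Kdm7a. The capitals mark the GC box GGGCGG or its reverse complement.
Jmjd1c: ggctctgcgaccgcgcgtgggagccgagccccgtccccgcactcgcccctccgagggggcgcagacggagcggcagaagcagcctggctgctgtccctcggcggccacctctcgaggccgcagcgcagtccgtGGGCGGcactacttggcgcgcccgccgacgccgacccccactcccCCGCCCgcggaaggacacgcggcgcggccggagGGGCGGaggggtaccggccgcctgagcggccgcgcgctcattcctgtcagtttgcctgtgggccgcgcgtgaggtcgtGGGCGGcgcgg
Kdm3a: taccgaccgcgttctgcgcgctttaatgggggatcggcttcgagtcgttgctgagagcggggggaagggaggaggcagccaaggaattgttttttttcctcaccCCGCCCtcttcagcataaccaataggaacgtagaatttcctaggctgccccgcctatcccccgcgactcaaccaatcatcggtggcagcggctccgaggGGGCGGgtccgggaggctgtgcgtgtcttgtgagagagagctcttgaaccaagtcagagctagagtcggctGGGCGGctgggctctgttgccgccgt
Kdm7a: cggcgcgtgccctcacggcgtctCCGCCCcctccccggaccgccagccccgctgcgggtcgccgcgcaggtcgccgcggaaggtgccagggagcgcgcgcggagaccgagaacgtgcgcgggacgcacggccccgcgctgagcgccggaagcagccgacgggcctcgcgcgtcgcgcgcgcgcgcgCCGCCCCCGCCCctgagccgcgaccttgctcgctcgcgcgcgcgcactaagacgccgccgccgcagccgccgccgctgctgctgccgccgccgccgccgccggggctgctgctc
The GC box was found 4 times in the Jmjd1c window shown, 3 times in that of Kdm3a and 3 times in that of Kdm7a, with no overlap between matches. The other Jmjd1c window held 0, and the other windows of Kdm3a held 4 and 0. Of the members not shown, Phf2 had 5 matches, Kdm4c had 1 in 1 of its 2 windows, and Kdm1a and Kdm4a had 0, while 35.7% of all 32851 promoter windows held at least 1. It was 1 of 8 motifs searched on both strands, and it was chosen for display after the matches were seen. No listed window of Jmjd1c or Kdm3a held the hypoxia response core ACGTG, and none of these 3 genes had the TATA box TATAAA in a listed window.

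Per transcript length, Jmjd1c had the highest level of the family in all 4 groups. Its TPM, the transcript level scaled by length and library, was 81.1 ± 3.37 in HP1α KO, 81.1 ± 1.36 in HP1α WT, 141 ± 15.1 in HP1γ KO and 121 ± 11.5 in HP1γ WT (SD, n = 4), and in each group its samples lay above all samples of the member next in order. Kdm4c was lowest in every group, at 18.0 to 19.6 TPM, and its samples did not overlap those of the member above it. Kdm3a, Phf2, Kdm3b and Kdm4a had means over the 16 samples of 59.7, 58.9, 56.9 and 54.7 TPM and Kdm1a one of 47.9 TPM, and their order changed from group to group. In both HP1γ groups each of these overlapped with the member next in order, and in both HP1α groups Kdm1a came sixth with samples below all those of Kdm3a. Kdm4b and Kdm7a changed places between the lines, at 35.1 and 27.9 TPM in HP1α KO and 33.5 and 30.2 in HP1α WT, but 29.5 and 48.1 TPM in HP1γ KO and 27.8 and 36.6 in HP1γ WT. Their samples overlapped in HP1α WT and not in the other 3 groups. Even Kdm4c lay above 59.6% of the genes that passed the filter, and Jmjd1c above 90.4%.

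**Figure D1:**
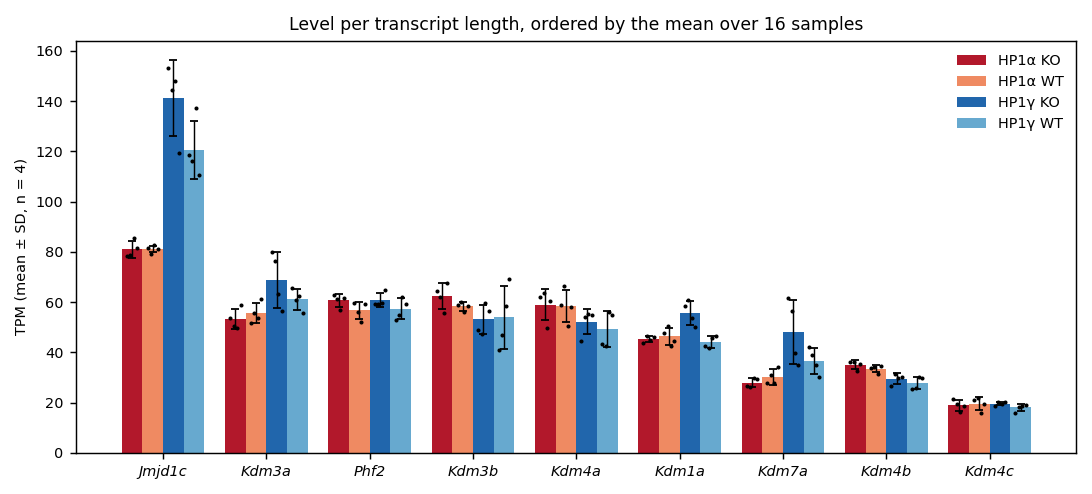
Mean TPM (bars) with SD and the 4 samples of each group (points) for the 9 genes, ordered by the mean over 16 samples. Jmjd1c is highest in all groups and is higher in both HP1γ groups, at 141 and 121 TPM, than in both HP1α groups, at 81.1 TPM each.

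The share of Jmjd1c in the family's summed level differed between the lines more than between genotypes. The 9 genes summed to 444 ± 16.4 TPM in HP1α KO, 439.6 ± 19.2 in HP1α WT, 529 ± 30.1 in HP1γ KO and 469 ± 28.0 in HP1γ WT (SD, n = 4). Jmjd1c made up 18.3%, 18.5%, 26.6% and 25.7% of these sums. A sum over genes can hide members that differ in opposite directions.

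**Figure D2:**
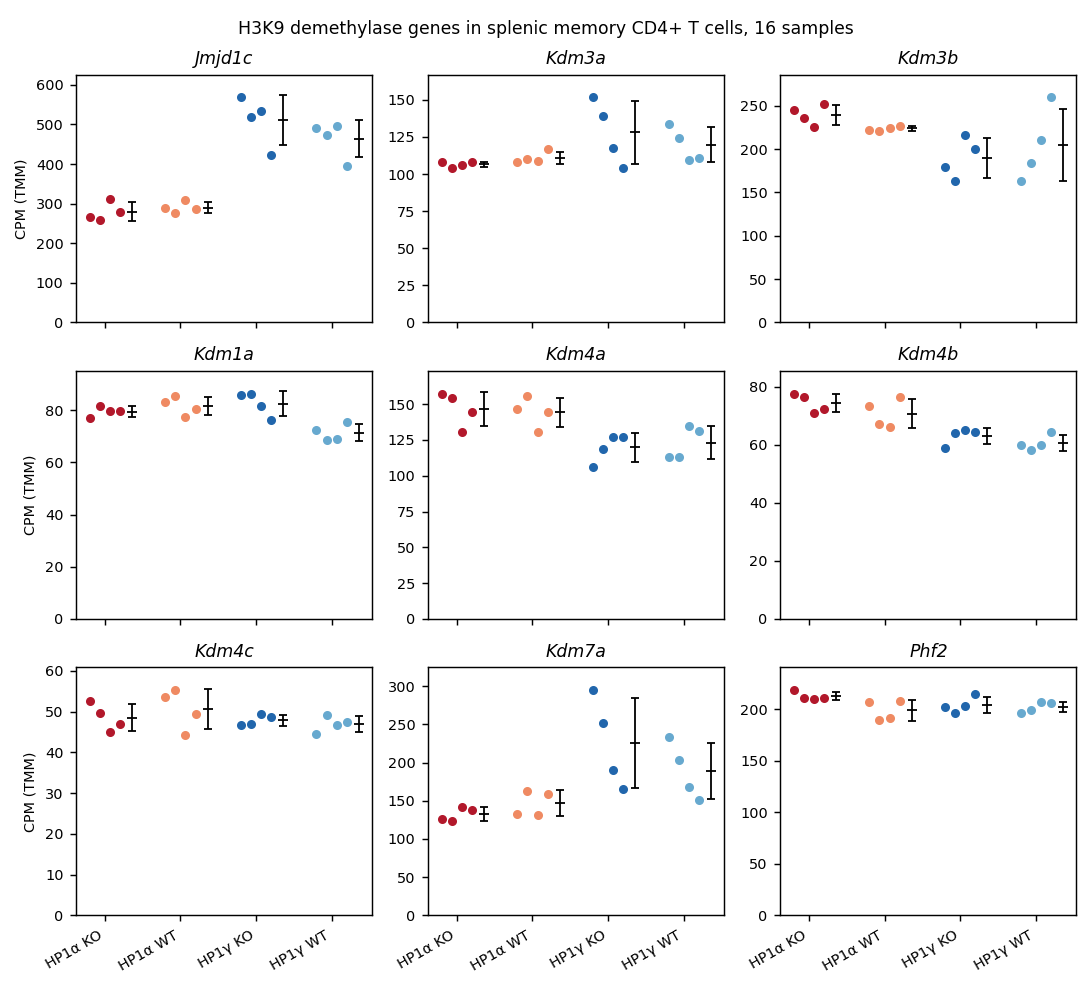
CPM after TMM normalization in each of the 16 samples for the 9 genes, by group, in the order of replicate number within a group, with the mean and SD in black. Jmjd1c separates the lines with no overlap, from 259 to 313 CPM in the HP1α line and from 395 to 569 in the HP1γ line. Kdm4b also separates them, by a narrow margin, from 66.0 to 77.7 CPM in the HP1α line and from 58.3 to 65.1 in the HP1γ line. The other members overlap between the lines.

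Loss of HP1α was compared with its WT littermates to ask whether removing a reader of the mark changes the genes that erase it. No member passed the test in HP1α KO against HP1α WT (0 of 9, edgeR quasi-likelihood test with Benjamini-Hochberg adjustment over all genes). The background was 0 of 14881 genes, or 0%. No member had an unadjusted p under 0.05 either, as against 4.27% of all genes, and DESeq2 and limma also called 0 of 9. The log2 fold changes ran from -0.15 for Kdm7a to 0.10 for Kdm3b and Phf2, with a median of -0.04 over the members and 0.00258 over all genes tested. The largest fold that any member's 95% interval still holds is 1.26, for Kdm7a.

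Phf2, a demethylase that works with the DNA-binding protein ARID5B, was the 1 member whose HP1α KO and HP1α WT samples did not overlap. It stood at 219, 211, 210.2 and 211 CPM in HP1α KO and at 208, 189, 191 and 208 CPM in HP1α WT. All KO samples were above all WT samples, by a narrow margin, which was so for 1.53% of all genes in that direction. The log2 fold change was 0.10 (SE 0.0520, adjusted p = 0.946, edgeR), and without the HP1α WT samples with most Rn18s-rs5 counts (replicates 2 and 3, named after their values were seen) it was 0.03.

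In this comparison the log2 fold changes of the members followed the GC content of their longest transcript, and so did those of all genes. Kdm7a has the lowest GC content of the family, 39.6%, and the lowest fold change. Phf2, with 57.4%, and Kdm3b, with 52.1%, have the highest fold changes. Kdm4b, Kdm4a and Kdm1a, with 55.4%, 53.6% and 52.5%, lie above Kdm3b in GC content but below it in fold change. Spearman's rho between fold change and GC content was 0.817 over the 9 members and 0.393 over 14814 genes. Between the WT groups of the 2 lines it was 0.617 over the members and 0.0593 over all genes with a GC value. Between the KO groups it was 0.617 and 0.219, and in HP1γ KO against HP1γ WT it was -0.483 and -0.0352. These are descriptions over genes that share their libraries. After a correction for GC content, added after the data were seen, the log2 fold change of Kdm7a in HP1α KO was 0.01 in place of -0.15. That of Phf2 was 0.05 in place of 0.10. Kdm1a moved the other way, from -0.04 to -0.09, Kdm3a stayed at -0.06 and Kdm4a turned from 0.02 to -0.03. No member was called.

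Loss of HP1γ was likewise compared with its WT littermates. No member passed the test in HP1γ KO against HP1γ WT (0 of 9, edgeR), where 49 of 14975 genes did, or 0.327%. DESeq2 and limma also called none, and 1 member, Kdm1a, had an unadjusted p under 0.05, as did 11.9% of all genes. The log2 fold changes were above 0 for 7 of the 9 members, with a median of 0.07 over the members and 0.000495 over all genes tested. The largest fold within a member's 95% interval is 1.61, for Kdm7a, which also had the largest log2 fold change of the members, 0.27 (SE 0.187, adjusted p = 0.596, edgeR).

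Kdm1a, which encodes the amine oxidase LSD1 of the CoREST complex, was the member with the smallest p in HP1γ KO. It stood at 86.0, 86.4, 81.5 and 76.3 CPM in HP1γ KO and at 72.3, 68.7, 69.1 and 75.6 CPM in HP1γ WT. The KO samples were all higher than the WT samples, as for 3.21% of all genes in that direction, although the lowest KO sample exceeded the highest WT sample by less than the SD of either group. The log2 fold change was 0.22 (SE 0.0641, 95% interval 0.08 to 0.36, unadjusted p = 0.00661), and the adjusted p was 0.260 (edgeR). Across 20 alternatives the adjusted p ran from 0.117 to 0.578 and the log2 fold change from 0.17 to 0.34, highest on TPM. Erythroid markers had a higher median in these KO samples than in their WT (1834 against 517 summed TPM), and their part in the Kdm1a values was not tested. In the HP1α line Kdm1a was at 79.5 ± 1.99 CPM in KO and 81.7 ± 3.45 CPM in WT (SD, n = 4). The difference between the 2 knockout effects on Kdm1a was -0.25 on the log2 scale (SE 0.0791) and did not pass the test (unadjusted p = 0.00637, adjusted p = 0.386, edgeR interaction).

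Kdm1a overlaps Luzp1, a gene on the other strand, at chr4:136277846-136330106 in GRCm39, and shares at least 150 bases of transcript with it. The strand setting of the counting is not given in the sources used here. Luzp1 was at a mean of 4.33 TPM, against 47.9 TPM for Kdm1a, and its log2 fold change in HP1γ KO was -0.19 (adjusted p = 0.524, edgeR), in the other direction.

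No member was called when the effects of the 2 knockouts were set against each other (0 of 9, edgeR interaction over 16 samples), where 8 of 15776 genes were, or 0.0507%. At an unadjusted p under 0.05, 1 of 9 members stood, Kdm1a, against 9.58% of all genes. For Kdm7a the difference was -0.40 (SE 0.225, adjusted p = 0.602, edgeR). The interval of this difference ran from -0.88 to 0.07.

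**Figure D3:**
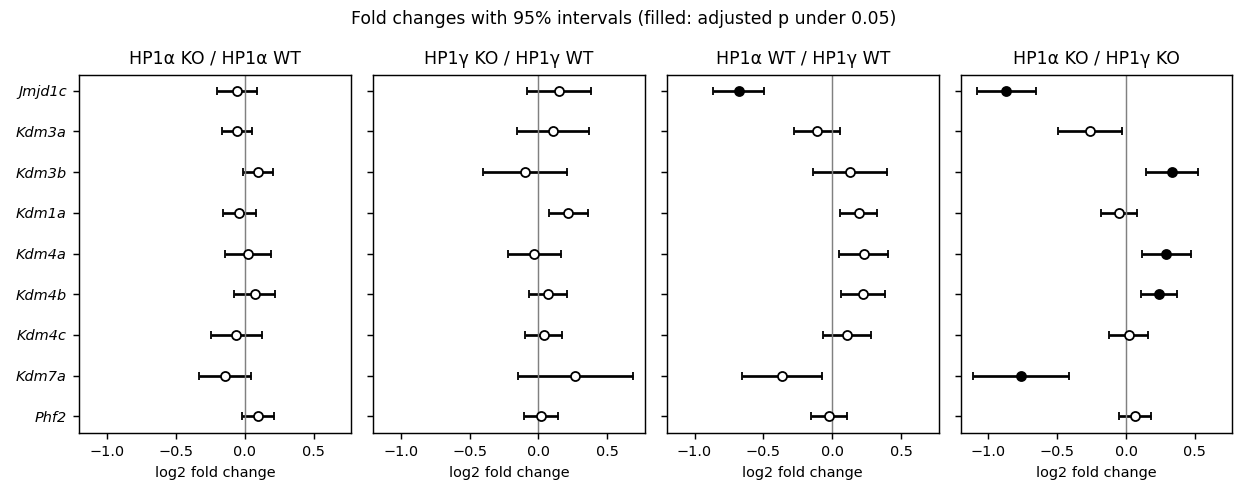
Log2 fold changes with 95% intervals of the 9 genes in 4 comparisons, each from its own 8 samples, with filled points for an adjusted p under 0.05. No point is filled in either KO against WT, Jmjd1c alone is filled between the WT groups, and 5 points are filled between the KO groups.

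The WT littermates of the 2 lines were compared to see how far the family differed with no HP1 gene deleted. In HP1α WT against HP1γ WT 1 of 9 members passed the test, Jmjd1c, where 12.8% of 14804 genes did (1896 genes, edgeR). DESeq2 called 4 members there, adding Kdm1a, Kdm4b and Kdm7a, and its share over all genes is not given here beside that count. No member passed the study's threshold, which also asks for an absolute log2 fold change above 1, and 1.90% of all genes did. At an unadjusted p under 0.05 there were 5 of 9 members (Kdm1a, Jmjd1c, Kdm4a, Kdm4b and Kdm7a), against 29.9% of all genes. The lines differ in the floxed or excised allele and in breeding, and any handling of the lines apart from each other cannot be told apart from the line.

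Jmjd1c, of the KDM3 family, was at 289, 276, 309 and 287 CPM in HP1α WT and at 492, 473, 497 and 395 CPM in HP1γ WT. The groups did not overlap, which was so for 19.5% of all genes, and the lowest HP1γ WT sample, replicate 4, was still far above the highest HP1α WT sample. The log2 fold change was -0.68 (SE 0.0831, 95% interval -0.86 to -0.50, adjusted p = 0.00198, edgeR), or 1.60-fold lower in HP1α WT. It was called in all 21 alternatives run, with log2 fold changes from -0.75 to -0.56 and adjusted p from 1.25e-11 to 0.0227, the highest without HP1α WT replicates 2 and 3. Erythroid markers also differed in their medians between these groups, 95.3 and 517 summed TPM with overlapping ranges, and their part in the result was not tested. Jmjd1c overlaps Reep3 on the other strand at chr10:66931904-67092109, and Reep3 had a log2 fold change of -0.11 there (adjusted p = 0.495, edgeR).

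The KO groups of the 2 lines, a comparison added after the data were seen, were set side by side in the same way. Jmjd1c was at 267, 259, 313 and 279 CPM in HP1α KO and at 569, 519.8, 534 and 422 CPM in HP1γ KO, again with no overlap, as for 32.3% of all genes. The log2 fold change was -0.87 (SE 0.0967, adjusted p = 0.000716, edgeR). In this comparison 5 of 9 members passed the test where 32.8% of 15020 genes did, with Kdm3b, Kdm4a and Kdm4b higher in HP1α KO and Jmjd1c and Kdm7a lower. DESeq2 also called 5 of 9, with no share over all genes given here beside it. The call of Kdm4a was lost when HP1α KO replicate 1 or 2 or HP1γ KO replicate 2 was left out (adjusted p = 0.0581, 0.0606 and 0.0527, edgeR). Kdm3a was called without HP1γ KO replicate 4 (adjusted p = 0.0122, edgeR). These groups differ both in line and in the HP1 gene deleted, which cannot be told apart.

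Of the KDM4 members, which act on the trimethylated mark, Kdm4a and Kdm4b had higher means in the HP1α line. Kdm4b was at 73.5, 67.2, 66.0 and 76.6 CPM in HP1α WT and at 59.9, 58.3, 60.0 and 64.4 CPM in HP1γ WT, with no overlap, as for 19.5% of all genes. Its log2 fold change between the WT groups was 0.22 (SE 0.0719) with an adjusted p of 0.0660 (edgeR), which did not pass, and between the KO groups it was 0.24 (adjusted p = 0.0125, edgeR). Kdm4a was at 144 ± 10.2 CPM in HP1α WT and 123 ± 11.5 CPM in HP1γ WT (SD, n = 4), with a log2 fold change of 0.23 (adjusted p = 0.0894, edgeR) and overlapping samples. Between the KO groups Kdm4a differed by 0.29 (adjusted p = 0.0198, edgeR). Kdm4c was within 47.0 to 50.7 CPM in the mean of all 4 groups and differed by 0.11 between the WT groups (adjusted p = 0.402, edgeR).

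Kdm7a, whose product removes dimethyl marks from lysine 9 and lysine 27, stood higher in the HP1γ line but with a wide spread there. It was at 132, 163, 132 and 159 CPM in HP1α WT and at 233, 203, 168 and 151 CPM in HP1γ WT, and the groups overlapped. The log2 fold change was -0.37 (SE 0.131, adjusted p = 0.0898, edgeR), and it passed when HP1γ WT replicate 4, the lowest, was left out (-0.46, adjusted p = 0.0374, edgeR), which made 2 called members. In the KO groups it was at 126, 124, 142 and 137 CPM in HP1α KO and at 295, 252, 190.1 and 165 CPM in HP1γ KO, with no overlap, as for 32.3% of all genes. That log2 fold change was -0.76 (SE 0.157, adjusted p = 0.00587, edgeR).

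Kdm3b, at 224 ± 2.56 CPM in HP1α WT and 205 ± 41.7 CPM in HP1γ WT (SD, n = 4), differed by 0.13 (adjusted p = 0.514, edgeR) and spread 20.4% of its mean in HP1γ WT against 1.14% in HP1α WT. Between the KO groups it was higher in HP1α KO by 0.34 (adjusted p = 0.0140, edgeR). Kdm3a differed by -0.11 between the WT groups (adjusted p = 0.357, edgeR) and by -0.26 between the KO groups (adjusted p = 0.0774, edgeR). Kdm1a was higher in HP1α WT than in HP1γ WT in every sample, by 0.19, and did not pass (adjusted p = 0.0665, edgeR). Samples did not overlap for 19.5% of all genes between these groups. Phf2 stood at 199 and 202 CPM in the 2 WT groups. These WT values enter the KO comparisons above as their controls. The mean of Kdm1a was 71.4 CPM in HP1γ WT and between 79.5 and 82.6 CPM in the other 3 groups. Whether its difference in HP1γ KO lies with the WT or with the KO samples was not tested.

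Within the HP1γ line Kdm3a and Kdm7a varied together from sample to sample. Kdm3a was at 152, 139, 117 and 104 CPM in HP1γ KO and at 134, 124, 109 and 111 CPM in HP1γ WT. In both genotypes the samples numbered 1 and 2 were high and those numbered 3 and 4 were low, for Kdm7a as for Kdm3a. Kdm3b went the other way, at 179.8, 164, 216 and 201 CPM in HP1γ KO and at 163, 184, 210.5 and 260.1 CPM in HP1γ WT. Pearson's r of the deviations from the group means of log2 CPM was 0.979 between Kdm3a and Kdm7a over the 8 samples of the HP1γ line and 0.576 over the 8 of the HP1α line, and between Kdm3a and Kdm3b it was -0.693 and 0.457. Kdm4a, Phf2, Kdm4b and Kdm4c also went against Kdm3a in the HP1γ line (r = -0.874, -0.851, -0.664 and -0.572). Jmjd1c and Kdm1a went with it there (0.702 and 0.616). These are descriptions over samples that share libraries, depth and base composition, and the part of these in the values was not tested.

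**Figure D4:**
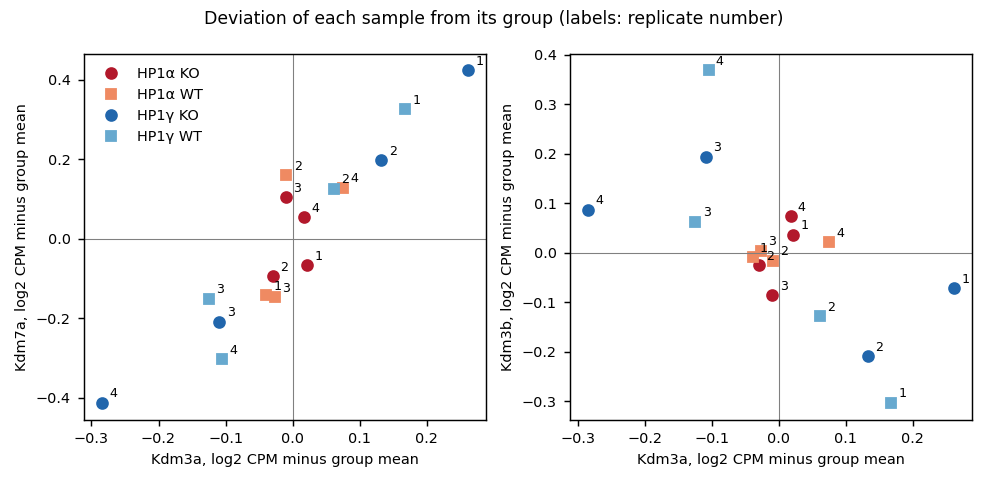
Deviation of each sample from the mean log2 CPM of its group, Kdm3a on the x axis and Kdm7a (left) or Kdm3b (right) on the y axis, with replicate numbers as labels. HP1γ samples 1 and 2 lie at high Kdm3a and Kdm7a and samples 3 and 4 at low values of both. The HP1α samples lie between -0.0391 and 0.0752 in Kdm3a and between -0.147 and 0.161 in Kdm7a.

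Among all genes, those with the pattern most like a member's were named by Pearson's r of log2 CPM over the 16 samples. For Jmjd1c these were Atad2 (r = 0.985) and Utrn (0.984), and r was 0.891 and 0.850 after the group means were taken off. For Kdm7a they were Map3k2 (0.981) and Arih1 (0.976), for Kdm3a Ptpn22 (0.963) and Aff4 (0.951), and for Kdm3b Nod1 (0.948) and Crybg2 (0.933). For Kdm4a they were Trappc14 (0.968) and Sh2d3c (0.968), for Kdm4b Gmip (0.972) and Fmnl1 (0.960), and for Kdm4c Gopc (0.868) and Zscan29 (0.868). Phf2 was nearest to Mfhas1 (0.860) and Tnrc18 (0.854), and Kdm1a to Gm43858 (0.893) and Gm49553 (0.869). The 2 lines form separate clusters for several of these genes, so that the r over 16 samples holds the line difference as well as the spread within groups.

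Several other demethylases of the JmjC class were lower in HP1α WT, as Jmjd1c was. Of 8 tested (Kdm2a, Kdm2b, Kdm5a, Kdm5b, Kdm5c, Kdm6a, Kdm6b and Kdm8), 5 were lower in HP1α WT than in HP1γ WT and none was higher, where 8.25% of all genes were lower, and none was called in either KO. The list's median log2 fold change was -0.25, beside 0.02 over all genes. Kdm6b, an H3K27 demethylase and the most highly expressed of them at 297 TPM, was at 805 ± 217 CPM in HP1α WT and 1374 ± 40.5 CPM in HP1γ WT (SD, n = 4, log2 fold change -0.77, adjusted p = 0.0177, edgeR). Kdm2b was lower by a log2 fold change of -0.75 (adjusted p = 0.0278), Kdm5b by -0.31 (0.0247), Kdm6a by -0.27 (0.0330) and Kdm5a by -0.23 (0.0457). Kdm2a, second in level at 137 TPM, differed by -0.18 (adjusted p = 0.0938, edgeR).

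Close relatives of the members were not called in any of these tests. Of Kdm1b, Kdm4d, Phf8 and Hr, 4 were tested between the WT groups and none was called, nor was any in HP1γ KO (4 tested) or HP1α KO (3 tested). Phf8 and Kdm1b, the highest in level, were at 18.9 and 10.5 TPM, and Hr was at 0.111 TPM.

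Some partners of LSD1 were higher in HP1α WT. Among the genes of the CoREST complex and its recruiters, Rcor3, a CoREST paralogue, differed by a log2 fold change of 0.53 (adjusted p = 0.0491, edgeR) and Hmg20b, an HMG-box subunit, by 0.30 (adjusted p = 0.0361, edgeR). None was called lower. Of all genes, 4.55% were called higher in HP1α WT and 8.25% lower. Hdac1, a deacetylase of the complex and the highest in level at 155 TPM, and Phf21a, at 108 TPM, were not called, and none of the 12 genes tested was called in a KO. Arid5b, the partner of PHF2, was at 25.8 TPM and was not called in any test, with log2 fold changes of -0.14 in HP1α KO and 0.01 in HP1γ KO (adjusted p = 0.946 and 0.968, edgeR).

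JmjC enzymes depend on 2-oxoglutarate and oxygen, and genes of both were listed. Of 11 genes that make or use 2-oxoglutarate or clear compounds that compete with it, 2 were higher in HP1α WT, where 4.55% of all genes were, Idh2 and Idh3b (log2 fold changes 0.33 and 0.22, adjusted p = 0.0406 and 0.0424, edgeR), none was lower and none was called in a KO. Idh3g and Idh3b were the highest in level, at 127 and 125 TPM. Of 7 oxygen sensing genes, 3 were lower in HP1α WT, where 8.25% of all genes were, and none higher. Epas1 was at 18.1 ± 4.33 CPM in HP1α WT and 40.6 ± 13.1 CPM in HP1γ WT (SD, n = 4, log2 fold change -1.17, adjusted p = 0.0139). Egln3, a prolyl hydroxylase, differed by -0.66 (adjusted p = 0.00361) and Hif1a, the highest at 156 TPM, by -0.63 (adjusted p = 0.0355, edgeR). Egln2, next in level at 60.5 TPM, differed by -0.00290.

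Of the 6 H3K9 methyltransferases that write the mark, Setdb1 was higher in HP1α WT (log2 fold change 0.36, adjusted p = 0.0214, edgeR) and Suv39h2 was lower (-0.98, adjusted p = 0.00655, edgeR). Between these groups 4.55% of all genes were called higher in HP1α WT and 8.25% lower. Ehmt2, the highest in level at 164 TPM, and Ehmt1, at 36.1 TPM, were not called, and no methyltransferase was called in a KO. In the WT comparison Jmjd1c, whose product has a less settled activity, and the writer gene Suv39h2 were both lower in the HP1α line. Their levels were far apart, 106 and 4.49 TPM over the 16 samples.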

How the data were processed

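RNA-Seq of memory cells was analysed in 16 samples, grouped by the submitters' titles. One treatment label describes a cell transfer at odds with the titles and was set aside. A kit for stranded mRNA was used, with reads in 150 bp pairs. After trimming, the authors used STAR on GRCm39 followed by Salmon, and deposited estimated counts per gene (11.6% not whole, not normalized). A deposited table of TPM, scaled by the authors for length and library, was used for levels between genes; TPM carry no information on depth. The study left out 1 RNA-seq sample on quality, which the labels do not tie to any of these 16.

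Counts were rounded and tested with edgeR 4.0.16 in R 4.3.3 (TMM, filterByExpr with a minimum count of 10, glmQLFTest, Benjamini-Hochberg adjustment over all genes, called at 0.05). Each comparison used its own 8 samples, the interaction all 16. Standard errors are the log2 fold change over the root of F. CPM values use TMM factors over 16 samples, and log values for correlations a prior count of 2. Alternatives were DESeq2 1.42.0, RLE size factors, no filter, at least 10 counts in every sample, a robust fit, all 16 samples in 1 fit, a replicate block, limma 3.58.1 on log2(TPM + 1) and log2(TPM + 0.1), and the omission of each sample. Corrections for GC content and transcript length, the omission of HP1α WT replicates 2 and 3, the comparison of the KO groups and the promoters shown were chosen after seeing the data. The floor of 3 counts was 7.46e-06% to 1.12e-05% of a sample's counts, which covers counting error only.

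The members and the gene lists were chosen with earlier results of these data known. Named genes are the members, Cbx5 and Cbx3, every list gene called in a planned comparison, the 2 of each list with the highest mean TPM, and the 2 genes nearest to each member. A gene of the LSD1-CoREST list is not reported here. On simulated counts of HP1α KO against HP1α WT edgeR recovered 68.5% of 200 genes changed 2-fold and 46.5% of those changed 1.5-fold, and 97.3% and 92.1% of those with a mean over 1000 counts, a level that was set after the share over all genes had been seen. It made 6 and 8 false calls, and none when no gene was changed. Replicates are samples of the labels: nothing ties each to its own animal beyond that, so that p-values measure the spread between these samples. No pair within a group was close enough to be 1 library under 2 names.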

Additional observations from a re-analysis of the deposited data

Results flagged for a closer look

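Of 36 sets of 4 samples (9 genes in 4 groups), 1 held a sample far from the others by Dixon's criterion: Phf2 in HP1α KO replicate 1, at 218.8 CPM, where the other 3 samples were between 210.2 and 211 CPM. The gap was 0.850 of the group's range, and chance gives such a gap in about 1 of 20 sets. No member's KO effect went opposite ways in every sample of the 2 lines, and none passed the interaction test.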

How the results depend on the processing

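Replicate numbers are shared by the groups but are not known to mark shared animals or days. Same-number deviations correlated at 0.0963, 0.237, 0.271 and 0.0797 in the HP1α line, at 0.116, 0.186, -0.00663 and 0.0878 in the HP1γ line and at -0.131 on average between the WT groups, and not every sample correlated best with its own number. With the replicate block the genes called numbered 577 between the WT groups and 13 in the interaction, and the 1 member call that changed was Kdm4a between the KO groups (0.29, adjusted p = 0.0566, edgeR). For Kdm7a in HP1γ KO the block gave 0.25 (SE 0.0575, adjusted p = 0.142, edgeR), which did not pass.

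In HP1α KO, where edgeR called 0 genes, 1 was called with no filter, a robust fit, the GC correction or the length correction, 5 by DESeq2 and 3 by limma on log2(TPM + 1), with or without the filter, and on log2(TPM + 0.1), and 0 to 3 when a sample was left out. In HP1γ KO the 49 genes became 31 with at least 10 counts in every sample, 96 with all 16 samples in 1 fit, 256 by DESeq2, and 17, 20 and 12 by limma on log2(TPM + 1), on log2(TPM + 0.1) and with no filter, and 30 to 49 when a sample was left out (30 without KO replicate 1, 32 without KO replicate 2). Between the WT groups the 1896 genes became 1135, 1143 and 551 by limma in the same order and 609 without HP1α WT replicates 2 and 3. They became 573 to 2185 when 1 sample was left out, with 573, 1101 and 1040 without HP1α WT replicates 1, 2 and 4 and 613 and 626 without HP1γ WT replicates 1 and 2. The interaction gave 14 genes with no filter and 7 to 12 when a sample was left out, in place of 8.

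The members called between the WT groups numbered 2 with the GC correction (2148 genes in all), 2 with the length correction (1983 genes), 3 with all 16 samples, 4 by DESeq2 and 1 to 2 when a sample was left out. No total over all genes is given here for all 16 samples or DESeq2. Kdm4b joined Jmjd1c in all of the first 4 (adjusted p = 0.0477, 0.0321, 0.0219 and 0.0357), Kdm1a with all 16 samples and by DESeq2 (0.0280 and 0.0304) and Kdm7a by DESeq2 (0.0463). Between the KO groups 4 to 6 were called when a sample was left out, where 3350 to 5202 of all genes were.

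Small log2 fold changes that were not called turned in direction. In HP1α KO Kdm4a became -0.0273 and Kdm7a 0.0122 with the GC correction, and Kdm4b -0.0127 without HP1α WT replicates 2 and 3. In HP1γ KO Phf2 became -0.00840 with the GC correction and -0.0217 with the length correction, Kdm4b -0.0254 with the latter, and by limma Kdm3b was between 0.00371 and 0.00416 and Kdm4a between 0.0860 and 0.0877. Between the WT groups Phf2 became 0.0242 with the length correction and 0.0425 without HP1α WT replicates 2 and 3. With 1 sample left out, Kdm4a ran from -0.0213 to 0.0742 in HP1α KO and from -0.0696 to 0.0251 in HP1γ KO, where Phf2 ran from -0.00522 to 0.0379 and Kdm3b from -0.194 to 0.0296. Phf2 ran from -0.0445 to 0.00632 between the WT groups, and Kdm4c from -0.0164 to 0.0557 between the KO groups. The cause of these changes was not tested. In both KO comparisons no alternative called a member.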
